A study of Homo sapiens with 2 samples.

Results

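The regions described here are wide stretches of open chromatin that were called in the T-cell acute lymphoblastic leukaemia (T-ALL) line RPMI-8402 and had no counterpart in the line Jurkat. A member was any RPMI-8402 peak on chromosomes 1 to 22 that was at least 800 bp wide and had no Jurkat peak within 1000 bp of either edge. This rule kept 853 of 23629 autosomal RPMI-8402 peaks, set against 24437 autosomal Jurkat peaks. The 853 were 9.46% of the wide RPMI-8402 peaks, where 30.6% of RPMI-8402 peaks of every width had no Jurkat peak that near. The peaks came from ATAC-seq, in which the Tn5 transposase cuts and tags DNA that is not packed away by nucleosomes. Both RPMI-8402 and Jurkat are established human lines from T-ALL, a malignancy of T-cell precursors. Each was grown in RPMI-1640 medium with tetracycline-free serum and antibiotics, was given no further treatment as far as the labels say, and was profiled in 1 library. No value below therefore has a replicate error, and no test between the lines was possible.

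The members were chosen by their width and by the absence of a nearby Jurkat peak, so their widths, their strengths and their distances to Jurkat peaks are descriptions. All coordinates are on hg19. Each peak carries the authors' own fold enrichment of its summit over the local background. The pileup, the coverage at the summit, was solved from the deposited fold and p-value, and its 95% Poisson interval covers counting error only. It is given below in fragments, though whether the peak caller counted read pairs or extended reads is not given. A site that is closed, one just below the calling threshold and one whose DNA a line lacks cannot be told apart in a peak list.

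Open chromatin marks promoters, where transcription starts, and enhancers, which act on genes at a distance. Broad open stretches are common at promoters rich in CG dinucleotides, a class that includes the starts of many genes for developmental transcription factors. In T-ALL, developmental factors such as homeobox and MADS-box proteins are known to be switched on out of place in subsets of patients. Locus names below come from general knowledge of the human gene map and not from an annotation of hg19, which was not used here. They place a region at a gene and say nothing of exon, intron or exact start. Names were given to 29 regions after their values were seen. In the RefSeq table for GRCh38.p14, all 29 symbols were on the same chromosome as the region, and on each of the 6 chromosomes with more than 1 of them the order was the same.

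Upstream sequences are shown for 4 of these genes, whose regions were among the widest or the farthest from any Jurkat peak. The choice did not follow rank, and MDGA2, MEF2C, FOXP2 and NRG3, whose regions also ranked high, were passed over. Each sequence shown is the 250 bases before the gene's start in RefSeq on GRCh38.p14. It is read 5′ to 3′ on the gene's strand, with CG dinucleotides in capitals. For NKX2-1 it is the first of 2 listed starts. Whether these bases lie inside the hg19 peak was not analysed here.
NKX2-1: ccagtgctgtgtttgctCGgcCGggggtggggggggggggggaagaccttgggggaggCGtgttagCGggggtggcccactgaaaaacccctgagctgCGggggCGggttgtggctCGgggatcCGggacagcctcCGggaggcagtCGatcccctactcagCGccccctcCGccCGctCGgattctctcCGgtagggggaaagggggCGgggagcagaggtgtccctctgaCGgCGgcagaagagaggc
FOXA1: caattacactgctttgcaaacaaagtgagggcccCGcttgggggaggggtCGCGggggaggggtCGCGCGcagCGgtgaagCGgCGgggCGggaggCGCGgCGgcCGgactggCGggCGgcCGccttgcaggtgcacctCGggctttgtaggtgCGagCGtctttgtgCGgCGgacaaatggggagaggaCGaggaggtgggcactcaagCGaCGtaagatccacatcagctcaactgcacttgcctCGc
LRFN5: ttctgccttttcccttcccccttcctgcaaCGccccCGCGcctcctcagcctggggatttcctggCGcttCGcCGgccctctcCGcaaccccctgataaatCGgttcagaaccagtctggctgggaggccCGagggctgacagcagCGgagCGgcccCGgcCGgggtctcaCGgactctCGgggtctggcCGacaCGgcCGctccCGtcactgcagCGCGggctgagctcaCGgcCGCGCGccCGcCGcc
DMRTA1: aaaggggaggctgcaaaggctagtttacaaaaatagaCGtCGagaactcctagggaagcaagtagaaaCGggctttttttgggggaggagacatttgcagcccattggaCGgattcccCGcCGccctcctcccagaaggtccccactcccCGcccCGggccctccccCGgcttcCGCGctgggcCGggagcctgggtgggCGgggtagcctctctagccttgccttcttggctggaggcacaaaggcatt

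The LRFN5 and FOXA1 sequences held 27 and 26 CG dinucleotides. Of the 27305 genes compared, out of 59792 in the RefSeq table, 17.3% and 19.2% had as many or more in the same window. The NKX2-1 sequence held 18, reached by 36.5% of genes, and the DMRTA1 sequence held 13, reached by 46.4%. The median over 27305 genes was 11. Of the 29 named genes, 27 had a sequence, and 14 of these (51.9%) were CG-dense, with at least 50% G plus C and at least 0.6 times the CG number expected from base composition. Over the 27305 genes the share was 44.9%, so the named genes stood close to the background in this respect.

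The members were a small part of the wide peaks. The share of 9.46% (95% exact binomial interval 8.87 to 10.1%) was taken over 9015 wide autosomal peaks. An overlapping Jurkat peak was present for 8142 of the wide peaks, and a Jurkat peak that lay within 1000 bp without overlapping was present for 20. The line-only share fell at each step of width in RPMI-8402. It was 62.6% for peaks under 400 bp, 48.5% from 400 to under 600 bp, 26.7% from 600 to under 800 bp and 13.1% from 800 to under 1000 bp. It was 7.23% from 1000 to under 1200 bp, 5.73% from 1200 to under 1500 bp and 4.27% (2.90 to 6.04%) for the 703 peaks of 1500 bp or more.

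The same rule applied the other way kept 853 RPMI-8402 peaks and 339 Jurkat peaks. The RPMI-8402 regions were 9.46% of the wide RPMI-8402 peaks, and the Jurkat regions were 4.41% (3.97 to 4.90%) of 7679 wide Jurkat peaks. Peak widths are not on one scale in these lists, as the narrowest peak was 309 bp in RPMI-8402 and 261 bp in Jurkat. Lowering the Jurkat minimum by this difference, to 752 bp, gave a Jurkat share of 5.45%. Taking the same fraction of widest peaks, 38.2% of each list, needed a Jurkat minimum of 728 bp and gave 5.91% (5.44 to 6.41%). The share stayed higher in RPMI-8402 on each of these scales. They change the width limit only, and the lists were not matched for pileup. From 800 to under 1000 bp the median pileup was 63 in RPMI-8402 and 86 in Jurkat. Over peaks of every width, 30.6% of RPMI-8402 peaks and 31.6% of Jurkat peaks were line-only, the opposite order.

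**Figure D1:**
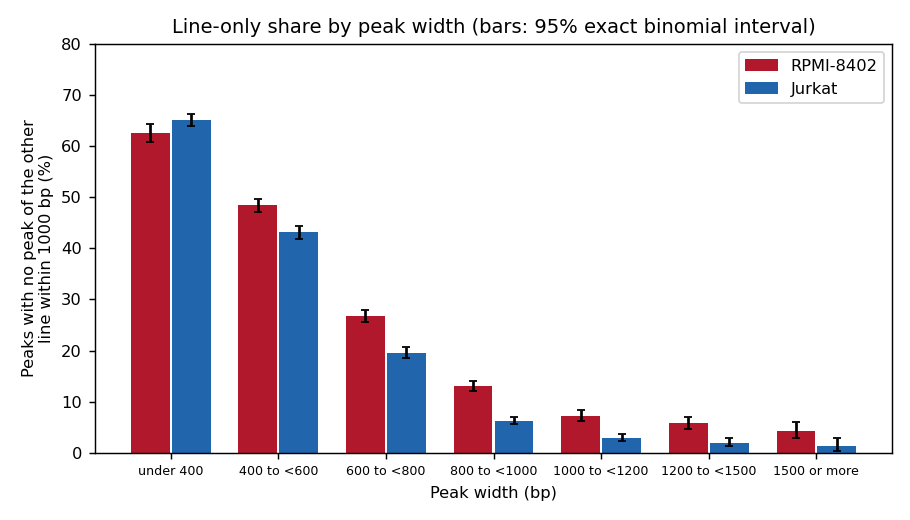
Share of peaks with no peak of the other line within 1000 bp (y axis, percent) by peak width (x axis, bp) in RPMI-8402 and Jurkat, 1 library each, with 95% exact binomial intervals. Peaks under 400 bp were line-only in 62.6% of cases in RPMI-8402 and 65.1% in Jurkat, and those of 1500 bp or more in 4.27% and 1.26%.

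The members were weaker than wide peaks with a Jurkat partner and stronger than narrow RPMI-8402-only peaks. Their median pileup was 37 fragments (25th to 75th percentile 26 to 55), against 83 for wide peaks overlapping a Jurkat peak and 20 for the 6372 RPMI-8402-only peaks under 800 bp. Their median fold enrichment was 6.94 (5.60 to 8.75), against 9.21 and 5.58 in those classes. It reached 10 or more in 120 members (14.1%). Their median width was 925 bp, with 358 members under 900 bp, 302 of 1000 bp or more and 30 of 1500 bp or more. Within the members width went with pileup only weakly (Spearman rho 0.27, 853 regions of 1 library) and not with fold enrichment (rho 0.00). The background under the summit was a median of 4.45 fragments per base for members, 8.13 for wide peaks with a Jurkat partner and 2.52 for the narrow RPMI-8402-only peaks. The lowest background in the library was 1.96.

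The pileups of the members can be set beside the weakest Jurkat call. Where 1 peak of each list overlapped (15948 pairs), the RPMI-8402 over Jurkat pileup had a median log2 of −0.18, or −0.48 once each list was scaled by its lowest background. Local ratios below are relative to this median. The unscaled ratio was then taken as the same everywhere. On that basis, a site as open in Jurkat as in RPMI-8402 would have had at least 13.5 Jurkat fragments at any member. The median over members would have been 41.8. By the lowest backgrounds these numbers would be 9.74 and 30.03. The weakest peak called in Jurkat had 9. The expected number was at least 2 times this pileup at 833 members (97.7%) unscaled, and at 717 (84.1%) by the backgrounds. Like shares for other RPMI-8402 peaks were not computed, so these counts have no background share. The median pileup was 38 over all autosomal RPMI-8402 peaks and 37 over members. That weakest call is the floor of the whole Jurkat list, and the ratio rests on sites called in both lines. Local ratios were not applied to single members. Around the member on chromosome 4 at 86177777 to 86178891 the local log2 ratio was 2.22, so its expected Jurkat number would be lower. Local background and the length a peak needs also bear on a call, and their part was not tested. These numbers do not tell a closed site from one just below the calling threshold.

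Regions just inside and just outside the rule were as follows. The members with the smallest width, 800 bp, included one on chromosome 6 at 24283379 to 24284178 with a fold of 8.35. The widest RPMI-8402-only peaks just below that width included one on chromosome 9 at 118492702 to 118493500 with a fold of 9.85. The member closest to a Jurkat peak, on chromosome 4 at 30720831 to 30721778, was 1033 bp away and had a fold of 3.89. The wide peak just outside, on chromosome 1 at 50812382 to 50813189, was 964 bp away and had a fold of 4.21.

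The first 5 members by width were at MDGA2, MEF2C, FOXP2, NKX2-1 and FOXA1. The region at MDGA2, a cell surface adhesion protein of neurons, spanned 2215 bp on chromosome 14 from 48143202 to 48145416, with 55 fragments at the summit (41.4 to 71.6). The region at MEF2C spanned 2094 bp on chromosome 5 from 88178406 to 88180499, with a fold of 6.81 and a pileup of 53 (39.7 to 69.3). MEF2C is a MADS-box transcription factor known as an oncogene of immature T-ALL. Its nearest Jurkat peak was 152.8 kb away.

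The region at FOXP2, a forkhead factor best known from brain development, was 2045 bp wide on chromosome 7 from 113724670 to 113726714. It had a pileup of 90 (72.4 to 110.6), and no Jurkat peak lay within 662.4 kb. The region at NKX2-1, a homeobox factor of lung and thyroid that is also known as a T-ALL oncogene, was 2003 bp wide on chromosome 14 from 36988122 to 36990124. Its pileup was 103 (84.1 to 124.9) with a fold of 5.32, and the nearest Jurkat peak was 135.1 kb away. The region at FOXA1, a forkhead factor that opens chromatin in gland tissues, followed on the same chromosome from 38063498 to 38065453. It was 1956 bp wide and had a pileup of 111 (91.3 to 133.7). Jurkat peaks lay no nearer than 278.4 kb.

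The neighbourhoods of NKX2-1 and FOXA1 also favoured RPMI-8402 at shared peaks. Pairs within 1 Mb of these regions had median log2 pileup ratios (RPMI-8402 over Jurkat) of 0.59 and 0.73, relative to all pairs. The part of this local shift in the calls was not tested. Around MEF2C the value was 0.20, and FOXP2 and MDGA2 had fewer than 5 pairs within 1 Mb.

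Of the other wide members, the sixth lay on chromosome 16 in the largest group of members, described further on. The next were at NPAS3, a bHLH-PAS factor of the nervous system (1936 bp), SEMA4D, a semaphorin made by lymphocytes (1875 bp), TCHH, a hair follicle protein (1871 bp), and SHANK3, a scaffold protein of synapses (1858 bp). Folds at these 4 regions were 6.59, 4.76, 6.36 and 3.77. Their surroundings differed. The region at SEMA4D had 9 Jurkat peaks within 100 kb, the nearest 2.60 kb away, while that at NPAS3 had 0 and its nearest lay 604.7 kb away. Further down the width order were IRX1, a homeobox factor (1787 bp), GPC6, a cell surface glypican (1772 bp), PDE3A, which degrades cyclic nucleotides (1771 bp), and ITGB8, an integrin (1742 bp). WT1, a zinc-finger factor of kidney development that is often expressed and sometimes mutated in acute leukaemia, was in place 17. Its region covered 1671 bp on chromosome 11 from 32456118 to 32457788, with 93 fragments at the summit (75.1 to 113.9), and a Jurkat peak lay 13.2 kb away.

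**Figure D2:**
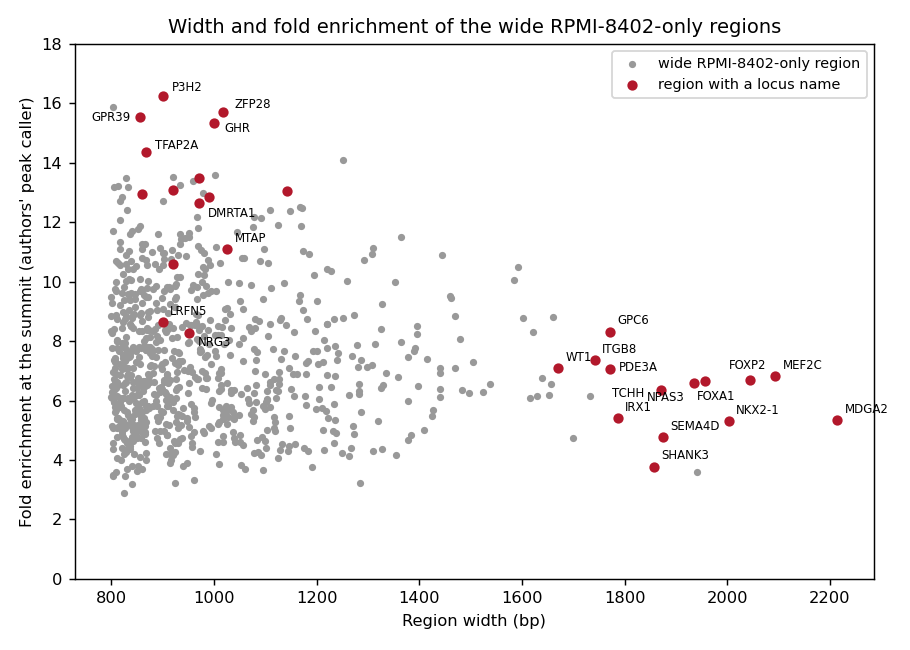
Fold enrichment at the summit (y axis, authors' peak caller) against region width (x axis, bp) for the 853 wide RPMI-8402-only regions of 1 library, with the named loci in red. The widest regions, from MDGA2 at 2215 bp down to WT1 at 1671 bp, had folds between 3.59 and 8.32, and the highest folds, 16.3 at P3H2 and 15.7 at ZFP28, belonged to regions of 901 and 1018 bp. Over all members width did not go with fold enrichment.

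The members with the highest fold enrichment were narrower than the widest regions above, though over all members width did not go with fold enrichment. The strongest lay at P3H2, which hydroxylates prolines of collagen, on chromosome 3 from 189837981 to 189838881. Its fold was 16.3 with a pileup of 305 (271.7 to 341.2), the 1 member with a pileup of 300 or more. The fifth, at the growth hormone receptor GHR, had a fold of 15.3 with a pileup of 149 (126.0 to 174.9) on chromosome 5 from 42423179 to 42424177. ZFP28, a KRAB zinc-finger protein, and GPR39, a zinc-sensing receptor, came just above it with folds of 15.7 and 15.5. Places 2 and 7 carry no locus name and lay at chromosome 9, position 17290270 (fold 15.9), and chromosome 16, position 32264616 (fold 14.1).

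The region at TFAP2A, the AP-2 alpha factor of neural crest and skin, had a fold of 14.4 and a pileup of 117 (96.8 to 140.2) on chromosome 6 from 10404176 to 10405042. A second member lay at 10411852 to 10413330, 1479 bp wide with a fold of 8.09. Places 9 and 10 were on chromosome 9 at 26955975 (fold 13.5) and chromosome 17 at 43697397 (fold 13.5), with Jurkat peaks 8.36 and 34.6 kb away. Below them came the neurexin gene NRXN3, in place 11 with a fold of 13.5 and no Jurkat peak within 445.0 kb. The Wnt inhibitor DKK1 had a fold of 13.04 and a Jurkat peak 5.09 kb away. The chemokine gene CXCL2 had a fold of 12.97 in a neighbourhood where shared pairs had a median log2 ratio of 1.01.

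Most members were more than 10 kb from any Jurkat peak. The median distance was 44.4 kb (25th to 75th percentile 16.5 to 126.9 kb), and 725 members (85.0%) were more than 10 kb away. More than 100 kb separated 253 members (29.7%) from the nearest Jurkat peak, more than 500 kb separated 34, and more than 1000 kb separated 5. Narrow RPMI-8402-only peaks were spaced from Jurkat peaks in much the same way, with a median of 42.3 kb and 27.7% beyond 100 kb. The nearest Jurkat peak was itself shared with RPMI-8402 for 552 members (64.7%), where 67.2% of all Jurkat peaks were shared. Its median pileup was 27, against 37 over all Jurkat peaks.

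**Figure D3:**
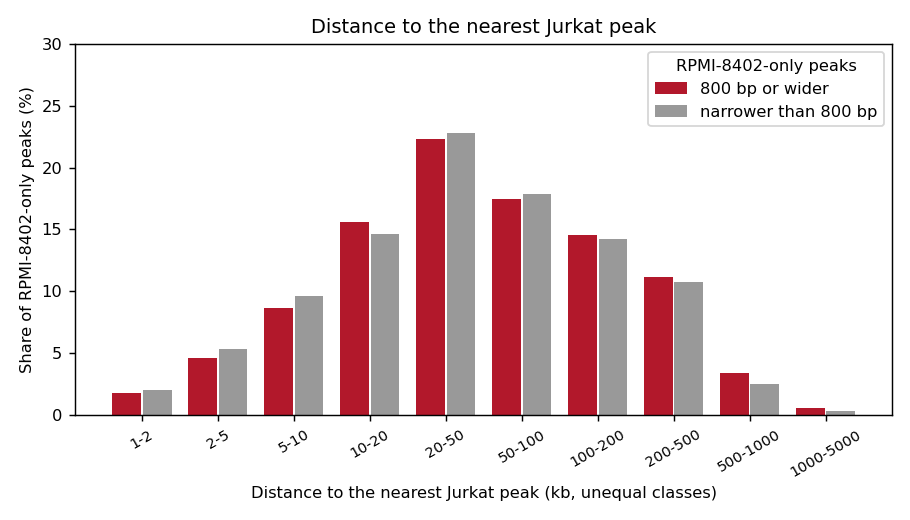
Share of RPMI-8402-only peaks (y axis, percent) by distance to the nearest Jurkat peak (x axis, kb, in classes of unequal size), for the 853 members and the 6372 narrower peaks of 1 library. Both shares were highest at 20 to 50 kb, with 22.3% of members and 22.8% of the narrower peaks.

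The member farthest from any Jurkat peak lay at LRFN5, a synaptic adhesion protein. It covered 900 bp on chromosome 14 from 42075603 to 42076502, with 63 fragments at the summit (48.4 to 80.6), and no Jurkat peak lay within 2173 kb. The second, on the same chromosome at 41360273 to 41361255, was 1458 kb away, with a pileup of 27 (17.8 to 39.3) and no locus name. The third lay at the neuregulin gene NRG3 on chromosome 10 from 83633920 to 83634870, 1174 kb away with a pileup of 64 (49.3 to 81.7). The fourth lay at DMRTA1, a DM-domain transcription factor, on chromosome 9 from 22446674 to 22447644. Its pileup was 126 (105.0 to 150.0), and Jurkat peaks lay no nearer than 1143 kb. The region at MTAP, an enzyme of methionine salvage, was the tenth, on chromosome 9 from 21802492 to 21803517. It had a pileup of 120 (99.5 to 143.5) and lay 705.7 kb from the nearest Jurkat peak. The fifth to ninth places, at 1042 to 736.0 kb, were 2 regions on chromosome 2 and 1 each on chromosomes 16, 10 and 11, with pileups from 25 to 39.

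DMRTA1 and MTAP shared one stretch of 2.49 Mb on chromosome 9, from 21096827 to 23590617, that held 14 RPMI-8402 peaks and no Jurkat peak. A further member there, at 21334798 to 21335610, had a pileup of 67. Stretches between neighbouring Jurkat peaks that held 3 members numbered 14, and none held more. In all, 777 stretches held members, and 717 of these held 1. No like count was made for other RPMI-8402 peaks, so these counts have no background share. The longest of the 14 were 4.37 Mb on chromosome 14, with the LRFN5 region, and 2.62 Mb on the same chromosome, with the MDGA2 region. The stretch with the NKX2-1 region was short, 0.282 Mb, and held 5 RPMI-8402 peaks. Its 3 members had pileups of 64, 103 and 78, at positions 36978994, 36988122 and 37116083.

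At gaps of at most 100 kb most members stood alone. A like grouping of other wide RPMI-8402 peaks was not run, so these counts have no background share. Joining neighbours with gaps of at most 100 kb put 94 members (11.02%) into 42 groups, of which 35 were pairs and 7 held at least 3 members. The other 759 stood alone, and the median gap between consecutive members was 1956 kb. Of the RPMI-8402 peaks next to a member on either side, 793 of 1705 (46.5%) were RPMI-8402-only. That share was 24.1% beside wide peaks with a Jurkat partner and 43.4% beside narrow RPMI-8402-only peaks. No other RPMI-8402 peak lay within 100 kb of 179 members (20.98%), against 11.4% of the wide peaks with a Jurkat partner and 20.3% of the narrow RPMI-8402-only peaks. By this measure and by the neighbour share, members stood close to the narrow RPMI-8402-only peaks.

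The largest group held 5 members in 134.5 kb of chromosome 16, from 85362082 to 85496612. It held 9 RPMI-8402 peaks and 3 Jurkat peaks in all, and member folds ran from 3.59 to 7.46. Shared pairs around it had a median log2 ratio of −0.57, in favour of Jurkat. A group of 4 lay on chromosome 20 from 61456074 to 61597078, among 11 RPMI-8402 and 5 Jurkat peaks, with folds from 3.68 to 5.78 and pileups from 29 to 58. A second group on chromosome 20, from 62708675 to 62734136, held 3 members with pileups of 60, 98 and 49 next to 1 Jurkat peak. The group on chromosome 3, from 194761153 to 194876008, held 3 members among 9 RPMI-8402 and 3 Jurkat peaks, with folds from 3.51 to 5.77.

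Of the 6 groups described here, those on chromosomes 4 and 2 had no Jurkat peak inside them. The group on chromosome 4 from 41305680 to 41372016 had pileups of 46, 76 and 27. The group on chromosome 2 from 225265788 to 225294725 had 3 members within 28.9 kb, with pileups of 53, 63 and 47 and a Jurkat peak 6.93 kb from the first. Around the groups other than that on chromosome 16, the median log2 ratio of shared pairs was 0.43 and 0.39 on chromosome 20. It was 0.34 on chromosome 3, 0.50 on chromosome 4 and −0.02 on chromosome 2. The part of these ratios in the groups was not tested.

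**Figure D4:**
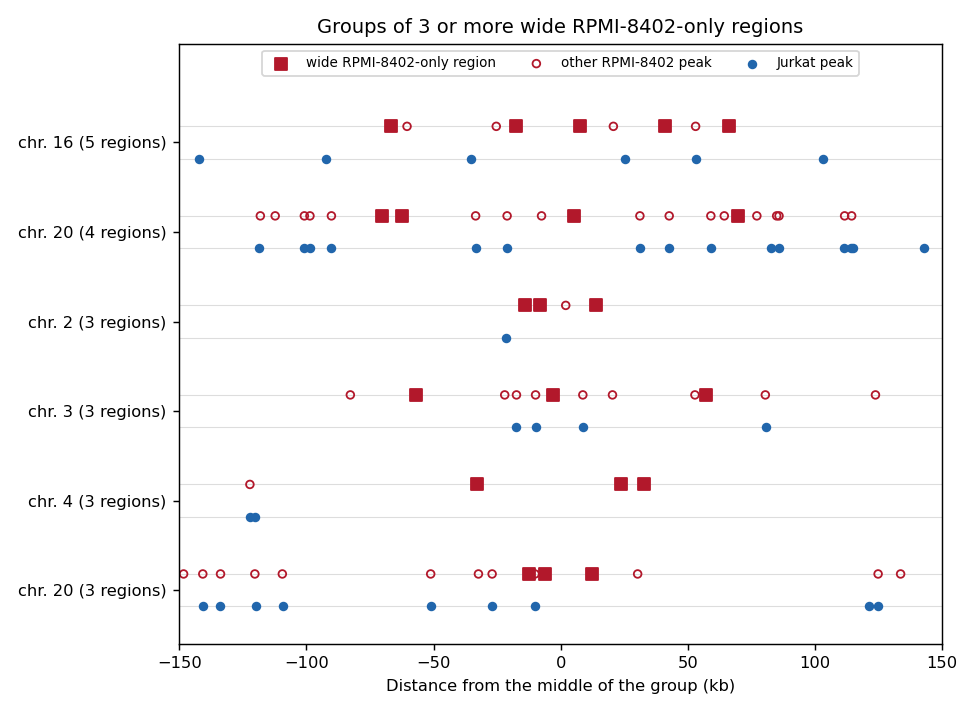
Peaks of RPMI-8402 (upper row of each pair) and Jurkat (lower row) around 6 groups of at least 3 members, by distance from the middle of the group (x axis, kb), 1 library each. The chromosome 16 group of 5 members has 3 Jurkat peaks between its members, and the groups on chromosomes 2 and 4 have none.

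Members were unevenly spread over the chromosomes. Chromosome 4 held 82 members, 15.9% of its 515 wide RPMI-8402 peaks (12.9 to 19.4%), against 9.46% over all autosomes. Chromosome 3 held 75 of 630 (11.9%, 9.48 to 14.7%). These were the chromosomes whose interval lay above the autosomal share. The interval lay below it on chromosome 13 with 7 of 151 (4.64%, 1.88 to 9.32%), chromosome 15 with 9 of 234 (3.85%, 1.77 to 7.18%) and chromosome 16 with 15 of 301 (4.98%, 2.82 to 8.09%). The intervals treat peaks as independent counts and are a description.

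The signal at shared peaks also differed between chromosomes. Over shared pairs the median log2 pileup ratio, RPMI-8402 over Jurkat and relative to all pairs, was 0.31 on chromosome 4 and 0.16 on chromosome 3. It was −0.62 on chromosome 13, −0.22 on chromosome 15 and −0.31 on chromosome 16. Other chromosomes went the opposite way, such as chromosome 5 with a share of 10.4% and a ratio of −0.26 and chromosome 21 with 6.67% and 0.20. Over the 22 autosomes, which come from the same pair of libraries, share and ratio had a Spearman rho of 0.37 as a description. Chromosome 20 had the highest ratio, 0.36, with a member share of 11.4% (7.68 to 16.2%) that did not stand apart. Its members had the lowest median fold of any autosome, 5.18, and those of chromosome 5 the highest, 8.27. Among the 695 members with at least 5 pairs within 1 Mb, the median local ratio was 0.08 (25th to 75th percentile −0.15 to 0.31). It was 0.5 or more around 80 members (11.5%) and −0.5 or less around 37 (5.32%). Around wide peaks with a Jurkat partner these shares were 6.08% and 6.09%, and around narrow RPMI-8402-only peaks they were 11.6% and 4.45%, close to the members. Whether the lines differ in copies of these segments was not tested.

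**Figure D5:**
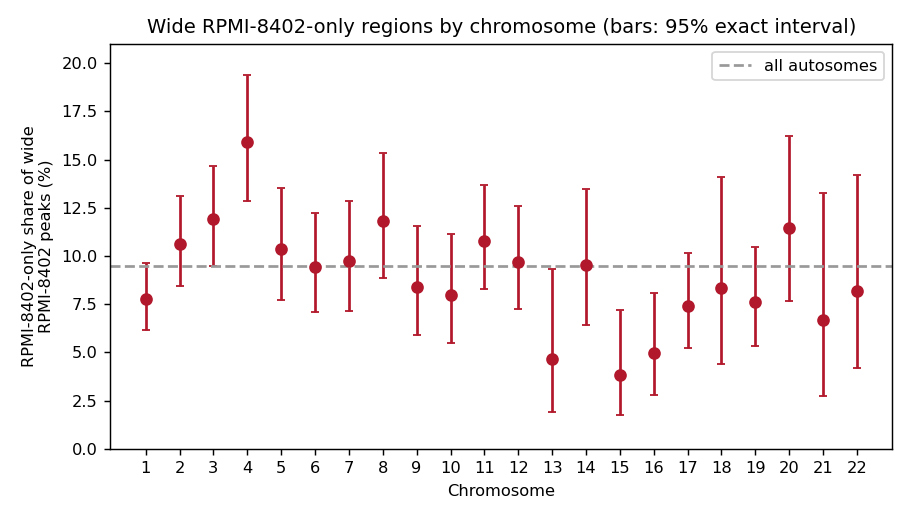
Share of wide RPMI-8402 peaks that were RPMI-8402-only (y axis, percent) on each autosome (x axis), with 95% exact binomial intervals and the autosomal share of 9.46% as a dashed line, 1 library per line. Chromosome 4 is highest at 15.9% and chromosome 15 lowest at 3.85%.

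Within the members the summit lay near the middle, at a median of 49.8% of the width from the lower coordinate. Its spread was wider than in wide peaks with a Jurkat partner, with a 25th to 75th percentile of 35.1 to 64.7% against 39.3 to 59.98%. It was 34.6 to 62.4% in narrow RPMI-8402-only peaks. In the widest region, at MDGA2, the summit was 2065 bp from the lower edge, and in the FOXA1 region 515 bp. The deposited lists give 1 summit per peak, so whether such regions hold several open sites was not analysed here.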

How the data were processed

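Open chromatin was measured by ATAC-seq in 1 library each of RPMI-8402 and Jurkat, sequenced as paired-end reads per the labels' protocols. The deposited files are peak lists in the 10-column narrowPeak layout, 1 per library. The submitters' processing notes name MACS2 2.1.1.2016030, Bowtie2, SAMtools, Picard and the build hg19, with roles and parameters not given in the sources used here. The authors deposited a fold enrichment (a ratio to background), a −log10 p-value, a −log10 q-value and a score that repeats the p-value. Depth in reads is unknown.

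Distances are gaps between peak edges. The member count was computed with pandas 2.3.3, scipy 1.17.1 and numpy 2.4.6 under Python 3.11.15, and bedtools 2.31.1 also found 853. Pileups were solved from the Poisson upper tail and the fold, with 1 added to pileup and background as MACS2 does, and came out whole in 100% of peaks within 1% of a step. On simulated pileups for 23629 RPMI-8402 peaks the solution recovered 100%, which checks the solving step. Local ratios are medians over at least 5 shared pairs within 1 Mb, less the median of all pairs. Intervals cover counting error only. No list of artefact-prone regions was applied.

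Regions named were the first 10 by fold, width and distance, groups of at least 3, and the rule's edges. IRX1, GPC6, PDE3A, ITGB8 and WT1 (width places 11 to 14 and 17) and NRXN3, DKK1 and CXCL2 (fold places 11, 18 and 20) fall outside this rule and were chosen after their values were seen, passing over other regions. Further, 1 region and its group are not reported here. Members and rules were chosen with earlier results of these data known. Gene lists and distances to gene starts, which need an hg19 annotation, were not used here.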

Additional observations from a re-analysis of the deposited data

Results flagged for a closer look

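Chromosome X was outside the rule but held the same kind of region. On it, 72 of 349 wide RPMI-8402 peaks had no Jurkat peak within 1000 bp, a share of 20.6% (95% exact binomial interval 16.5 to 25.3%), against 9.46% on the autosomes. It drew attention as signal in peaks that the comparisons above leave out. The chromosome X regions had a median fold of 6.98 and a median distance of 80.6 kb to the nearest Jurkat peak. The list for chromosome X held 949 RPMI-8402 and 693 Jurkat peaks, and a difference in X copies between the lines was not tested.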

How the results depend on the processing

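Of 30 alternative values, 17 stayed within 1.5 times the count or inside the counting interval, and 13 moved. The number of members was 1420 at a width of at least 700 bp and 302 at 1000 bp, and their share of wide peaks was 12.2% and 6.29%; at 1000 bp the median fold was 6.73. Without Jurkat peaks within 10000 bp the share was 8.04% and the median distance 58003 bp. With peaks kept in each list from a −log10 q of 10 upwards, there were 999 members. Their share was 11.5%, the median fold 7.37 and the median distance 62920 bp. With the RPMI-8402 list alone at that limit there were 696 members, the share was 7.99% and the median fold 7.60. These 2 settings differ only in the limit on Jurkat peaks, so the member count depends on which weak Jurkat calls are kept. Gaps of up to 500 kb put 285 members into groups. These shifts follow from the rules, which keep other peaks. Leaving out neighbourhoods with a local log2 ratio of 0.5 or more, chosen after seeing the data, kept 773 members and a share of 9.14%. Alternatives on gene starts and nearest genes were not run, as they need an hg19 annotation. No paired analysis was possible because there is 1 library per line, so leaving out a replicate was not possible either. Peaks near the weakest called pileups, 10 in RPMI-8402 and 9 in Jurkat, are the least certain to be called.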
